A study of Rattus norvegicus with 12 samples.

Results

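At the position of Fkbp5 on rat chromosome 20, all 14 assembled entries had higher values in the hippocampus 1 h after corticosterone, and the authors called 4 of the 11 they tested higher, where 0.271% of all tested entries were. The 14 are the entries of the deposited gene table whose position lies between 7974577 and 8105037 on that chromosome, whatever their test status, out of 58341 entries in all. They are 1 leading entry and 10 sparser entries that carry the same position, 7974577 to 8087005, and 3 short entries that follow between 8090358 and 8105037. None of the entries of the table carries a gene symbol, so the name Fkbp5 comes from the position given for this gene in the rn6 assembly and not from the file. The members were chosen with their values in this comparison known, so their levels and changes are given as a description and no test of them is added. The 7 tested sparser entries and the called short entry had vehicle levels below the lowest mean of any tested entry. They could be tested only through their corticosterone values, so the share called is not read as support.

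Fkbp5 encodes FKBP51, an immunophilin co-chaperone that binds Hsp90 in the complex holding the unliganded glucocorticoid receptor. FKBP51 lowers the receptor's affinity for hormone, and the activated receptor in turn induces Fkbp5 through binding sites in the gene's introns, which makes a short intracellular negative feedback loop. In brain, Fkbp5 is widely used as a readout of glucocorticoid receptor activity and has been studied in relation to stress responses.

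The samples were hippocampi from 12 male Sprague-Dawley rats aged 8 weeks, all with the adrenal glands removed, so that both groups lacked their main source of endogenous glucocorticoid. Of these, 6 had received corticosterone at 300 µg/kg and 6 had received vehicle, and tissue was taken 1 h later. One label field of the treated samples names cortisone instead, but corticosterone in the titles and protocol was followed. The table gives each group as 1 pooled value per entry in FPKM (fragment counts scaled for transcript length and library size), so there is no SD between animals, and whole hippocampus was used, so more cells of a type and more RNA per cell cannot be told apart. Hippocampal cell type markers and the other genes of the receptor's chaperone cycle could not be looked up, because 0 of the 20 markers and 0 of the 26 pathway and target genes listed matched a symbol.

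The promoter of the gene is shown as background, and its place relative to the short entries was not examined. In the RefSeq annotation of another assembly, GRCr8, Fkbp5 lies on the minus strand between Tulp1 and Armc12. Its promoter there, from 250 bases before to 50 bases after the annotated start, is at chr20:6543506-6543805. These are GRCr8 coordinates and do not correspond to those of the gene table. The sequence follows 5′ to 3′ on the gene's strand, and capitals mark matches to the CCAAT box (CCAAT) and the GC box (GGGCGG), searched on both strands.
Fkbp5 promoter: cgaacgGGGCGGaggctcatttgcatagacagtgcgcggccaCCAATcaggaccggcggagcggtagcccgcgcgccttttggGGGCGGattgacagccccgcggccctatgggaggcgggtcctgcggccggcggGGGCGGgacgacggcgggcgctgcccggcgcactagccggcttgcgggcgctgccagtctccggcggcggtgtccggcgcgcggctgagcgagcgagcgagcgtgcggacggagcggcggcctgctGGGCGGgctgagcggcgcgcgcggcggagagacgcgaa
The window held 1 CCAAT match, starting at position -208 from the start, and 4 GGGCGG matches, none of which overlapped. Of 33469 RefSeq promoters of the same length, 37.5% held at least 1 CCAAT match and 33.1% at least 1 GGGCGG match. Its GC content was 77%, against a median of 51.7% over all these promoters. The letters of the palindromic glucocorticoid response element, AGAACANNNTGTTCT, were not in this window, and neither was its hexamer AGAACA, nor TATAAA, on either strand. The palindrome was in 0.0149% of the promoters, the hexamer in 20.7% and TATAAA in 14.2%. These matches describe the sequence in this window and were not tested as binding sites.

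The leading entry, XLOC_031691, is the most abundant of the locus, whose position of 112429 bp all its entries share. It stood at 3.56 FPKM with vehicle and 9.06 FPKM with corticosterone. In the authors' deposited table it rose 2.55-fold, a log2 change of 1.35, with p = 5e-05 and q = 0.0165. These are the smallest p and q of that table, and the other called members shared them. In absolute terms it gained 5.50 FPKM. Of 11711 tested entries with a mean level within 2-fold of its own, 38 had a log2 change at least as large, or 0.324%. Both counts include the leading entry itself. Among the 115 called higher entries with both values above 0, it ranked 28 by fold and 15 by the gain in FPKM.

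The 10 nested entries share the printed position of the leading entry and are listed separately from it. How much of that position each covers is not given. It was not tested whether they are parts of the same transcription unit as the leading entry. The 10 stood at 0.063 to 0.37 FPKM with vehicle and 0.33 to 2.35 FPKM with corticosterone. All 10 were higher with corticosterone, with ratios in the authors' deposited table of 3.18 to 11.2 and a median log2 change of 2.46. The corticosterone value of XLOC_031923, 0.327 FPKM, was below the highest vehicle value of the 10, 0.366 FPKM, and the corticosterone values of the other 9 were above it.

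Of these nested entries, 2 were called. XLOC_031924 stood at 0.339 FPKM with vehicle and 1.94 FPKM with corticosterone, and rose 5.72-fold with q = 0.0165 in the authors' deposited table, first by fold among the 115 called higher entries. XLOC_031920 stood at 0.366 FPKM with vehicle and 1.94 FPKM with corticosterone, and rose 5.32-fold with q = 0.0165 in the authors' deposited table. Both thus had nearly the same level in each group.

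The nested entry with the largest change was not called. XLOC_031918 stood at 0.209 FPKM with vehicle and 2.35 FPKM with corticosterone, and the authors' deposited table gives it a ratio of 11.2 with p = 0.112 and q = 0.999. It had the highest corticosterone level of the nested entries, above both called ones, and a vehicle level below both. XLOC_031921 stood at 0.226 and 1.56 FPKM with p = 0.00055 and q = 0.120 in the authors' deposited table. XLOC_031922 stood at 0.319 and 1.51 FPKM with p = 0.00105 and q = 0.191 in the authors' deposited table. These last 2 had an unadjusted p below 0.05 without passing the adjustment over all 42839 tested entries.

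The remaining 5 nested entries were not called or not tested. XLOC_031919 stood at 0.238 FPKM with vehicle and 1.43 FPKM with corticosterone, with p = 0.118 and q = 0.999 in the authors' deposited table. XLOC_031925 stood at 0.157 and 0.889 FPKM, with p = 0.064 and again q = 0.999 in the authors' deposited table. The other 3, XLOC_031923, XLOC_031926 and XLOC_031927, were left untested by the authors. They stood at 0.063, 0.161 and 0.157 FPKM with vehicle and at 0.327, 0.513 and 0.681 FPKM with corticosterone. Their highest mean, 0.419 FPKM, was below the lowest mean of any tested entry in the table, 0.427 FPKM. All 7 tested nested entries had a vehicle level below 0.81 FPKM, the highest mean of any untested entry, so a sparse entry could be tested through its corticosterone value. For that reason neither the share of tested entries that were higher nor the share called is read as support.

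**Figure D1:**
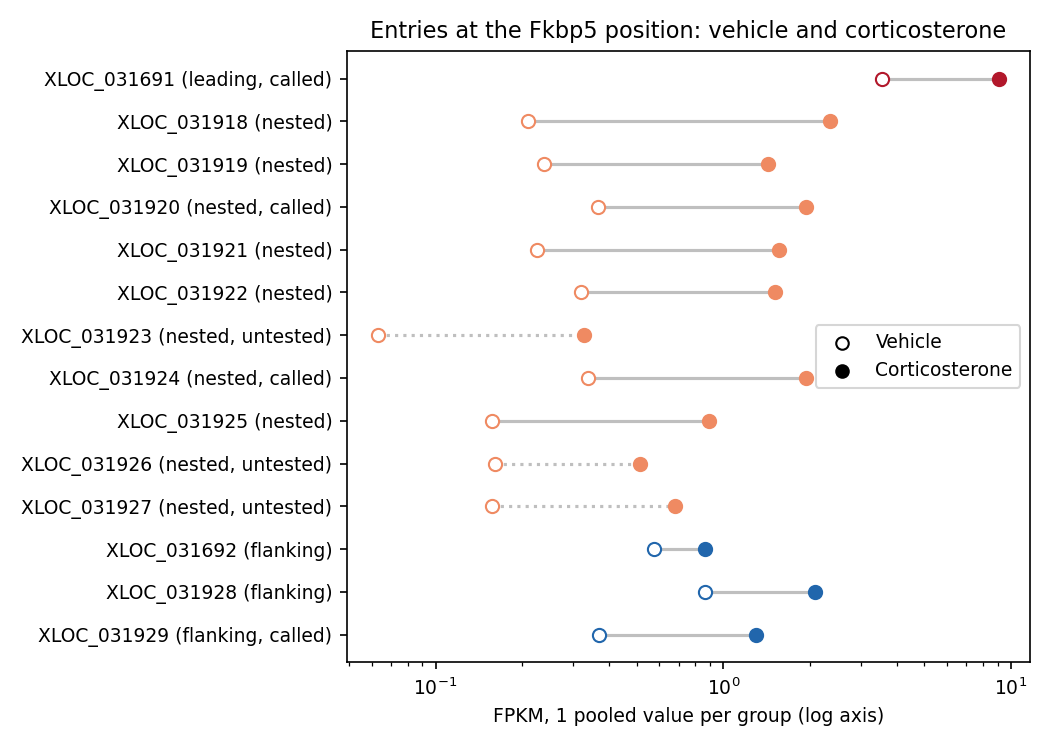
FPKM of the 14 entries at the Fkbp5 position on a log axis, 1 pooled value per group of 6 rats, with open points for vehicle, filled points for corticosterone and dotted lines for the 3 untested entries. Every filled point lies to the right of its open point, and the leading entry, at 3.56 and 9.06 FPKM, is the most abundant in both groups.

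The 3 short entries beyond the end of the Fkbp5 position also had higher values with corticosterone, by less than most nested entries. The nearest, XLOC_031692 at 8090358 to 8097141, begins 3353 bp after that end and stood at 0.573 FPKM with vehicle and 0.866 FPKM with corticosterone, which in the authors' deposited table is a ratio of 1.51 with q = 0.999. XLOC_031928, an entry of 350 bp at 8102741 to 8103090, stood at 0.862 and 2.08 FPKM, a ratio of 2.41 with p = 0.0752 and q = 0.999 in the authors' deposited table. XLOC_031929, at 8103202 to 8105037, begins 16197 bp after that end and stood at 0.370 FPKM with vehicle and 1.30 FPKM with corticosterone. It rose 3.51-fold with q = 0.0165 in the authors' deposited table and was the only one of these 3 that was called. Its vehicle level was below 0.427 FPKM, the lowest mean of any tested entry, so it could be tested only through its corticosterone value. The ratio was thus larger in the 2 farther entries than in the nearest one, a difference that was not tested. Whether they belong to the same transcription unit as the leading entry was not tested.

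In all, 4 of the 11 tested members were called higher in the authors' deposited table and 0 were called lower, and 6 passed an unadjusted p of 0.05. With a threshold of 0.10 for q the count was again 4, against 0.313% of all tested entries. Over all tested entries 0.271% were called higher, 0.0747% were called lower, and 1.83% had a higher value with an unadjusted p of 0.05 or less. A higher value of any size was found in 51.8% of all tested entries. The median log2 change was 2.41 over the 11 tested members and 0.007 over all tested entries of the authors' deposited table. The 7 tested nested entries and XLOC_031929 had vehicle levels below 0.427 FPKM, the lowest mean of any tested entry. They could thus be tested only through their corticosterone values. The members were also chosen from this same comparison. These counts and medians therefore place the members in the table and show nothing further about them.

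**Figure D2:**
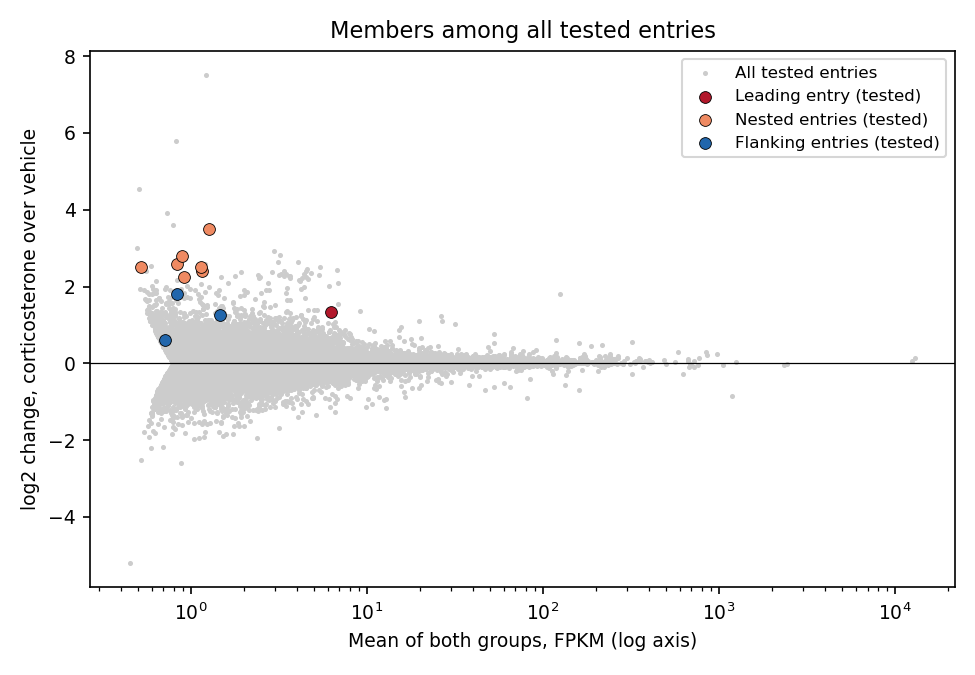
The log2 change of corticosterone over vehicle against the mean FPKM of both groups (log axis) for all tested entries with both values above 0 (grey) and the 11 tested members (coloured). The nested entries lie at means of 0.52 to 1.28 FPKM with log2 changes of 2.24 to 3.49, above the leading entry, which lies at 6.31 FPKM and 1.35.

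The member with the largest change was not called, and the members also differed in the deposited test statistic relative to their change. The log2 change divided by the statistic was 0.301 for the leading entry, 0.534 for XLOC_031924, 0.744 for XLOC_031929 and 1.02 for XLOC_031920, the 4 called members. Among the 7 tested members that were not called it ran from 1.30 to 3.53, the highest being XLOC_031918, whose statistic in the authors' deposited table was 0.988 against 4.71 for XLOC_031924. Tested entries with a mean within 2-fold of that of XLOC_031918 had a median of 1.23, and those within 2-fold of that of the leading entry 0.412. The ratio contains the statistic of the authors' own test, so it is no separate evidence for the calls. The way the statistic and its p-value were computed was not stated in the labels or file headers.

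**Figure D3:**
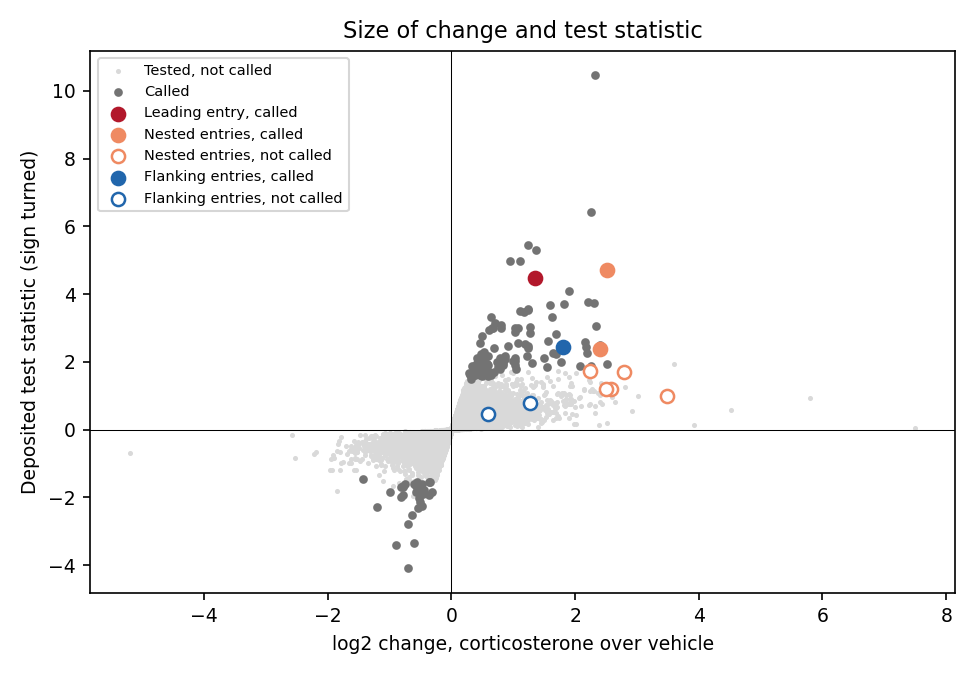
The deposited test statistic, with its sign turned so that positive means higher with corticosterone, against the log2 change for all tested entries with both values above 0 (light grey, called ones dark grey) and the 11 tested members (filled where called, open where not). The leading entry has a statistic of 4.47 at a log2 change of 1.35, while XLOC_031918 has 0.988 at 3.49.

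The nested entries made up more of the summed level of the locus with corticosterone than with vehicle. Summed over the 11 entries of the position, the FPKM values came to 5.79 with vehicle and 22.2 with corticosterone, a ratio of 3.83. The leading entry gave 61.4% of the sum with vehicle and 40.8% with corticosterone. The median nested entry stood at 6.11% of the leading entry's level with vehicle and at 16.2% with corticosterone. FPKM is scaled to each entry's own transcript length, so these sums treat short and long entries alike and are not fragment counts. As deposited, all 10 nested entries had a larger log2 change than the leading entry. With 1 FPKM added to every value, which compresses low levels, 1 of the 10 had the larger change. On that scale the leading entry had a log2 change of 1.14 and the nested entries a median of 0.95. The larger factor of the nested entries therefore holds on the deposited scale and with 0.1 FPKM added (9 of 10), and not with 1 FPKM added.

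The numbering of the entries separated the leading entry from the nested ones. Along chromosome 20 the entry numbers run through the positions in 3 successive passes of 224, 201 and 773 entries. The leading entry and the nearest flanking entry, XLOC_031692, are in the second pass. The 10 nested entries and the other 2 flanking entries are in the third, whose entries had a median of 1.02 FPKM with vehicle, against 4.44 in the first pass and 4.07 in the second. The file header does not say what distinguishes the passes, and it gives a strand for no entry.

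The authors' separate list of different transcripts also covers these loci. It names 122 transcripts, of which 3 carry the Fkbp5 position and 1, TCONS_00058791, the position of XLOC_031929. All 4 have the code 999, the higher of the list's codes. Most listed loci had a single transcript, 82 of 95, and 4 loci had at least 3, the Fkbp5 position among them. The list and the table come from the same analysis by the authors, so the list is not independent evidence.

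The entries just outside the chosen stretch were not called. On the side of higher coordinates, XLOC_031930 begins 346 bp beyond the last member and stood at 0.300 FPKM with vehicle and 0.511 FPKM with corticosterone, untested. Its log2 change of 0.77 in the authors' deposited table was larger than that of the member XLOC_031692, 0.60. The next entry there, XLOC_031473, begins 60000 bp beyond the last member and stood at 0.901 and 0.742 FPKM, lower with corticosterone (q = 0.999 in the authors' deposited table). On the side of lower coordinates, the nearest entry, XLOC_031690, was untested and stood at 0.761 FPKM with vehicle and 0.653 FPKM with corticosterone. No entry lies in the 60889 bp between it and the Fkbp5 position.

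Within 100 kb of the members, 4 of 5 tested entries had higher values with corticosterone and 0 were called. Their log2 changes ran from -0.28 to 0.63 with a median of 0.12. Within 500 kb, 22 of 23 tested entries on the side of lower coordinates were higher, with a median log2 change of 0.16, against 8 of 18 on the other side, with a median of -0.03. These entries share loci, and 14 of the 23 belong to a single one. Counting the most abundant tested entry of each locus, 6 of 6 loci on the lower side and 6 of 11 on the upper side were higher. With the window widened to 1 Mb, these counts were closer, 10 of 13 and 8 of 13 loci. Within 1 Mb, 0 of 91 tested entries were called and 4 had an unadjusted p of 0.05 or less in the authors' deposited table. The difference between the sides was noticed in these values and was not tested.

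**Figure D4:**
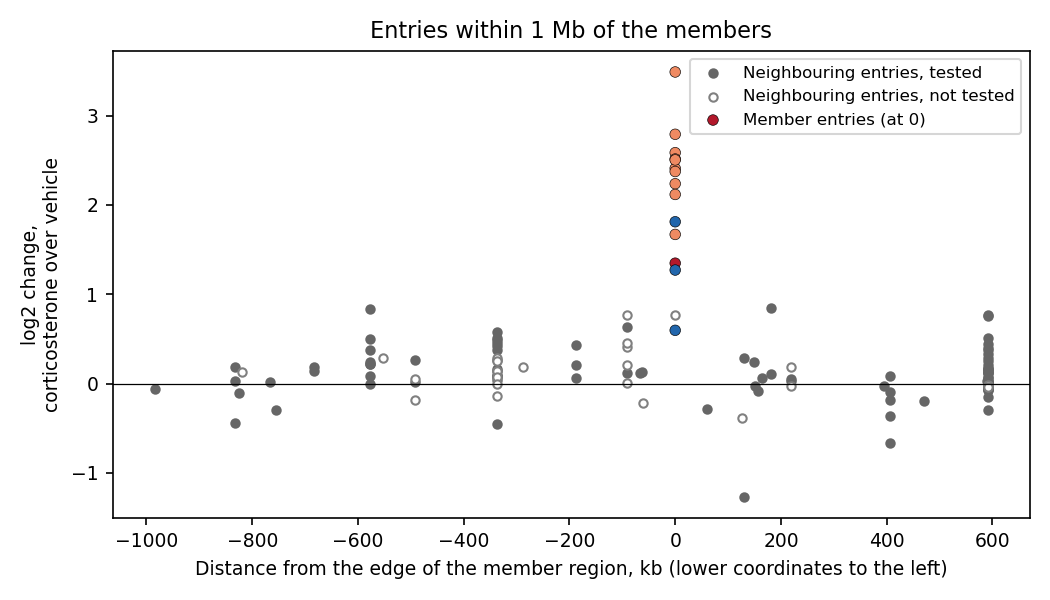
The log2 change of corticosterone over vehicle for entries within 1 Mb of the members against their distance in kb from the nearer edge of the member region, with tested entries filled, untested ones open and the 14 members in colour at 0 (red leading, orange nested, blue flanking). Entries of the same locus share a distance, and every tested neighbour lies between -1.27 and 0.84, below every member but XLOC_031692.

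Loci with many assembled entries were set beside the Fkbp5 position to see how often every tested entry of a locus was higher with corticosterone. Loci with every tested entry lower were not counted. Of 991 loci with at least 8 tested entries, 51 (5.15%) had every tested entry higher, and of the 120 with exactly 8, as at the Fkbp5 position, 11 (9.17%) did. Only 7 of the 991 held a called higher entry, and 3 held at least 3. Among the 991, the Fkbp5 position had the largest log2 change of the most abundant entry, 1.35, and the largest median of the other tested entries, 2.51, in the authors' deposited table. Over all 991 these measures had medians of 0.03 and -0.005. The locus was chosen for its change, so its place in this order is a description. Its other tested entries had a median vehicle level of 0.238 FPKM. At the chromosome 8 locus, which had the next largest median change of the others, that level was 1.42 FPKM. The order was not recomputed with a constant added, which compresses low levels. It therefore holds for the deposited scale only. Its 7 tested nested entries had at most 0.366 FPKM with vehicle, below the lowest mean of any tested entry, 0.427 FPKM. They could thus be tested only through their corticosterone values. That all its tested entries were higher is therefore not read against the shares of other loci.

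The other 6 of these loci fell on both sides of that pattern. On chromosome 8, the locus at 52980103 to 53147051 came closest on the deposited scale, and all its 42 tested entries were higher. Its log2 changes were 1.11 for the leading entry and a median of 2.23 for the others. On chromosome 7, the locus at 125569769 to 125612977 had 1.03 and 1.78, with all 11 tested entries higher. On chromosome 1, the locus at 24185451 to 24302581 had a leading change of 1.24, close to that at the Fkbp5 position, but a median of -0.29 for the others, with 3 of 13 tested entries higher. A large change of the leading entry thus came with and without larger changes of the other entries. The loci on chromosomes 18, 11 and 5 had leading changes of 0.80, 0.33 and 0.29 and medians of the others of 0.90, 0.36 and 0.61. All these values are from the authors' deposited table, and the differences between loci were not tested.

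**Figure D5:**
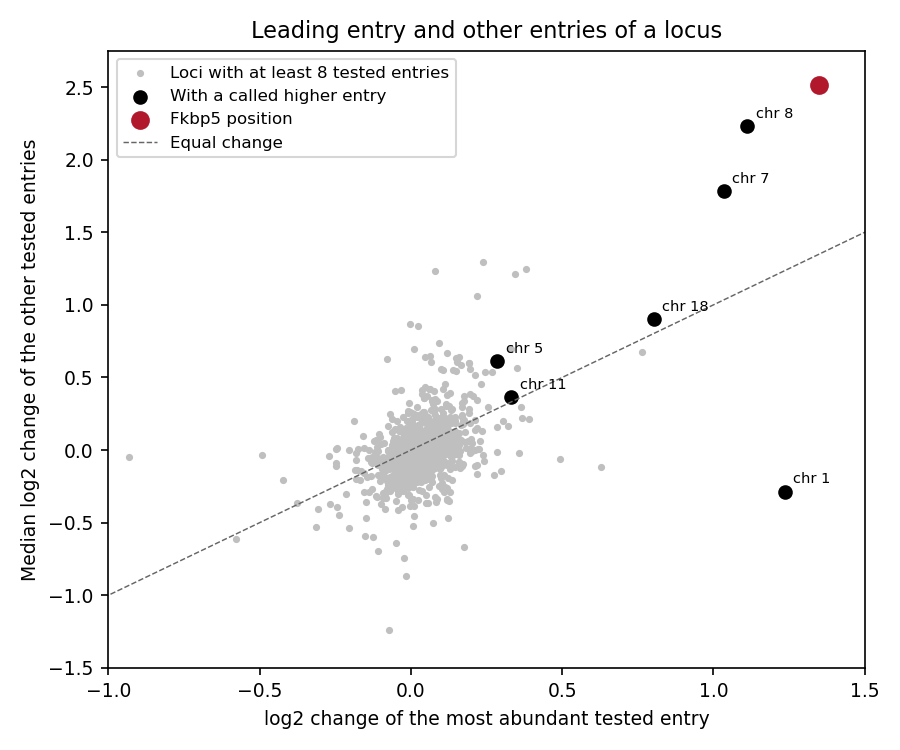
Median log2 change of the other tested entries against the log2 change of the most abundant tested entry for 991 loci with at least 8 tested entries (grey), with the 7 that hold a called higher entry in black or, for the Fkbp5 position, red, and a dashed line for equal change. The Fkbp5 position lies at 1.35 and 2.51, and the chromosome 1 locus at 1.24 and -0.29.

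The 5 tested entries of other loci most like the leading entry in level were looked up, and 1 of them was called. Likeness was the straight-line distance in log2 FPKM with corticosterone and with vehicle, over 2 pooled values. The nearest was XLOC_023495 on chromosome 17 at 90446765 to 90453207, with 3.47 FPKM with vehicle and 10.2 FPKM with corticosterone (q = 0.999 in the authors' deposited table), at a distance of 0.173. Of the nearest 5, only XLOC_021772, on chromosome 17 at 13391446 to 13393237, was called, with 4.26 and 9.00 FPKM and q = 0.0165 in the authors' deposited table. XLOC_041686 on chromosome 5, XLOC_037241 on chromosome 4 and XLOC_023173 on chromosome 17 had 3.81 to 4.27 FPKM with vehicle and 7.33 to 8.67 FPKM with corticosterone. Similar pooled levels were therefore called at some loci and not at others.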

How the data were processed

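RNA from the hippocampi of 12 rats was sequenced. Per the submitters' processing notes, the tools were TopHat 0.9 and Bowtie2 0.6, with Cuffdiff 2.2.1.3 and Cufflinks 2.2.1.0. Order and settings are not given. The same notes name the build rn5, but 106 entries lie on scaffolds with rn6 names, so positions are printed as the table gives them and read as rn6. Per the file headers, the authors deposited FPKM values, 1 per group and entry. The log2 change deposited by the authors sets Control over Cort, so its sign was turned. Of 58271 entries with both values above 0, it matched the value ratio within 0.001 in 58263. Deposited p-values and q-values of the authors were kept unaltered, over 42839 tested entries, and an entry was called at q of 0.05 or less, which matched the authors' mark in all 148. The deposited test statistic, a score, and the score code of the transcript list were used for description. Starts are taken as printed.

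Members, gene lists and comparisons were chosen with earlier results of these data known. The entries named were all members, the nearest entries outside them, and the 5 tested entries of other loci nearest in log2 FPKM. Also named were the called higher loci with at least 8 tested entries. Entries of the same locus were taken as printed, and the most abundant one led. Read depth is unknown, so no counting interval is given, and a group's single value allows no test over animals. Promoter sequences were taken from RefSeq (GRCr8), in which 1 entry matched Fkbp5. Computations used Python 3.11.15 with pandas 2.3.3, and the counting and adjustment steps were tested on simulated data. Alternatives were pseudocounts, recentring, other q thresholds, other sets for adjustment and other neighbour windows.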

Additional observations from a re-analysis of the deposited data

How the results depend on the processing

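The leading entry's log2 change of 1.35 was 1.32 and 1.14 with 0.1 and 1 FPKM added, 1.34 after recentring on the median of tested entries and 1.94 for the sum of all 11 entries, or 1.60 for the sum of the 3 called ones. That of XLOC_031929, 1.81, was 1.57 and 0.75 with 0.1 and 1 FPKM added and 1.80 after recentring; the lower values follow from adding a constant to low levels. All 11 tested members were higher as deposited and after recentring, as were all 14 of any status and all 5 with a mean of at least 1 FPKM, where fewer entries are counted. The 4 called members were 4 at q of 0.10 or less and 3 with adjustment over entries with a mean of at least 1 FPKM. That set leaves out XLOC_031929, with a mean of 0.835 FPKM, and the 3 kept q = 0.0165. The called members were 2 with adjustment over the most abundant entry of each locus, which leaves the nested ones out. They were 0 at q of 0.01 or less, because the smallest q is 0.0165, while 6 had an unadjusted p of 0.05 or less. Widening the neighbour window from 100 to 500 kb gave 30 of 41 tested entries higher, and a window of 50 kb held 0 tested entries and gave no value. The comparison of nested with leading entries, added after seeing the data, went from 10 of 10 to 9 and to 1 with 0.1 and 1 FPKM added. No paired analysis was possible because the table holds no values of single rats, which also kept each rat from being left out in turn.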

Other observations

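Among the members, the order of the deposited p-values did not follow that of the test statistics. In the authors' deposited table, XLOC_031928 had a statistic of 0.778 and p = 0.0752, while XLOC_031919 had a larger statistic of 1.19 and a larger p of 0.118. The entries that were called had statistics from 2.37 to 4.71 and shared the same Cuffdiff p-value, 5e-05, so their p-values do not rank them.

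Of the tested entries of chromosome 20, 9 of 912 were called higher in the authors' deposited table and 0 were called lower. Over all tested entries 0.271% were called higher and 0.0747% lower. Of the 9, 4 are the called members described above, which were chosen with their values known.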
